A study of Mus musculus with 14 samples.

Results

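Plexins are the receptors through which cells read semaphorins. The mouse genes Plxna1, Plxna2, Plxna3, Plxna4, Plxnb1, Plxnb2, Plxnb3, Plxnc1 and Plxnd1 were taken by symbol from a deposited table of raw gene counts, which makes 9 of its 40840 genes. The family was selected on the Plxnb1 counts of the pre and onset libraries, which were higher at onset in earlier results of these data, so that difference is given here as a description and is not tested. The table holds RNA from eyes of female mice aged 7 to 8 weeks, labelled as retinal ganglion cell neurons, the output neurons of the retina whose axons form the optic nerve. Of the 13 libraries, 4 were from naive control mice. The other 9 were from mice with EAE, experimental autoimmune encephalomyelitis, in which immunised mice attack their own myelin. It models multiple sclerosis and often reaches the optic nerve. Of these, 4 were taken in the stage labelled pre, 4 at onset and 1 at peak. A second peak sample in the labels was not analysed here. The labels name no strain, transgene, immunising antigen, batch or sort. Nothing in them ties a replicate to its own animal, and p-values then measure only how far these samples spread, which may be technical.

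Semaphorin binding relieves the autoinhibition of a plexin and activates its intracellular GTPase-activating domain. That domain acts on small GTPases of the Ras family and so weakens adhesion and collapses the growth cone of an axon. Secreted class 3 semaphorins mostly need a neuropilin as the binding co-receptor of an A-class plexin, whereas membrane-bound semaphorins bind plexins directly. B-class plexins also carry a tail that recruits guanine nucleotide exchange factors. In the developing mouse retina, A-class plexins and their transmembrane semaphorin ligands keep neurites in the correct layers of the inner plexiform layer.

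Plxnb1 led to the choice of the family, and Plxnc1 had its lowest value in the only peak library. The promoters of these 2 members, on which most of the following turns, are shown. Each is the 250 bases before the RefSeq start, in assembly GRCm38.p6 and read 5′ to 3′ on the gene's strand, at chr9:109095186-109095435 on the plus strand for Plxnb1 and at chr10:94944846-94945095 on the minus strand for Plxnc1. Capitals mark GGGCGG or its reverse complement CCGCCC, the core of the GC box that Sp-family factors bind.
Plxnb1: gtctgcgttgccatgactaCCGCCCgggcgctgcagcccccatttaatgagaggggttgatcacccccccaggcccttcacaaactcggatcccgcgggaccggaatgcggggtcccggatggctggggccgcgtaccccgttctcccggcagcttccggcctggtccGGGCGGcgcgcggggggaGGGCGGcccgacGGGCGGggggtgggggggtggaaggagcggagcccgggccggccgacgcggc
Plxnc1: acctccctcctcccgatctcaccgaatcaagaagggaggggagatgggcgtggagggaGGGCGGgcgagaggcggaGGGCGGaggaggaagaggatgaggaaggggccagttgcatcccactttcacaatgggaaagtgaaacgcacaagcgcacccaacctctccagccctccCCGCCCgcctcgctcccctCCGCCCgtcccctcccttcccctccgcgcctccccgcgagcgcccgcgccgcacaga
Both windows held 4 such matches. RefSeq promoters were matched for 7 of the 9 members, all but Plxna1 and Plxna4. GGGCGG, on either strand, was present for 6 of those 7, all but Plxnb3, against 32.7% of the 32851 mouse promoter windows of the same length. GC content was 75.2% for Plxnb1 and 68.8% for Plxnc1, against a median of 52.4% over all windows. The Plxnb1 window had 30 CG dinucleotides, the Plxnc1 window 22 and the Plxnb3 window 3, with a median of 6. The TATA motif TATAAA was in none of the members' windows and in 12.4% of all windows, the CCAAT box likewise in none and in 33.8%, and the E-box CACGTG in none and in 6.0%, each searched on both strands. A match is a description of these letters and was not tested as a binding site.

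Library totals ran from 2596705 to 7641214 counts, so that 3 counts, taken as the least that can be told from 0, equal 0.377 to 1.14 CPM (counts scaled to a common library total with edgeR's TMM factors). This floor covers counting error only. Plexins received 3096 to 7774 counts per library. A filter on low counts kept 14893 genes and 8 of the 9 plexins, all but Plxnb3. Ganglion cell markers (14 genes) summed to 968 to 1410 CPM in naive libraries, 1080 to 1560 in pre, 814 to 999 CPM at onset and 937 at peak, where Pou4f2 and Pou4f3 were at 0. Such a sum can hide its single markers, since at peak 12 of the 13 tested ganglion cell markers were lower than naive, with a median of -2.17 log2. Amacrine markers summed to 6060 to 8190 CPM over the 13 libraries, so transcripts typical of cells other than the labelled type were present. Sums of different lists are not scaled for gene length and do not compare cell numbers. Rod markers summed to the widest range in absolute CPM among naive libraries, from 872 to 7200. Naive 4, naive 5, pre 4 and onset 3 had the highest rod levels, and values without these 4 libraries are given where a result rests on them. Microglia and macrophage markers (16 genes, none at 0) summed to 134 to 704 CPM in naive libraries, 562 to 1430 in pre, 460 to 2370 at onset and 1120 at peak. In such bulk samples, fewer cells of a type and less RNA per cell cannot be told apart.

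The 9 plexins differed widely in level. On the scale of CPM per kilobase of exon, which allows genes to be compared, Plxna1 was highest in naive libraries at 37.4 ± 7.02 (SD, n = 4), its lowest library (31.5) lying above the highest of Plxna2 (27.5). Plxna2 followed at 22.2 ± 4.05 and Plxnb2 at 20.1 ± 2.06, and these neighbours differed by less than their spread. Plxna3 at 14 ± 2.99, Plxnb1 at 13.2 ± 1.59 and Plxna4 at 10.1 ± 2.61 formed the middle of the order, and neighbours among them overlapped. Plxnc1 lay below them at 6.78 ± 0.489, Plxnd1 at 0.736 ± 0.494 and Plxnb3 at 0.0980 ± 0.0745. The order of the leading genes rests on the length used. Per kilobase of coding sequence, Plxna2 came first with 67.0 ± 12.3 and Plxna1 second with 59.6 ± 11.2. Plxnb1 held place 5 per kilobase of exon in the naive group. It was at place 6 in the pre group and at place 4 in both later groups. Per kilobase of coding sequence it held places 5, 6, 5 and 4 in naive, pre, onset and peak. Pre and onset values led to the choice of the family, so these places are descriptions.

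**Figure D1:**
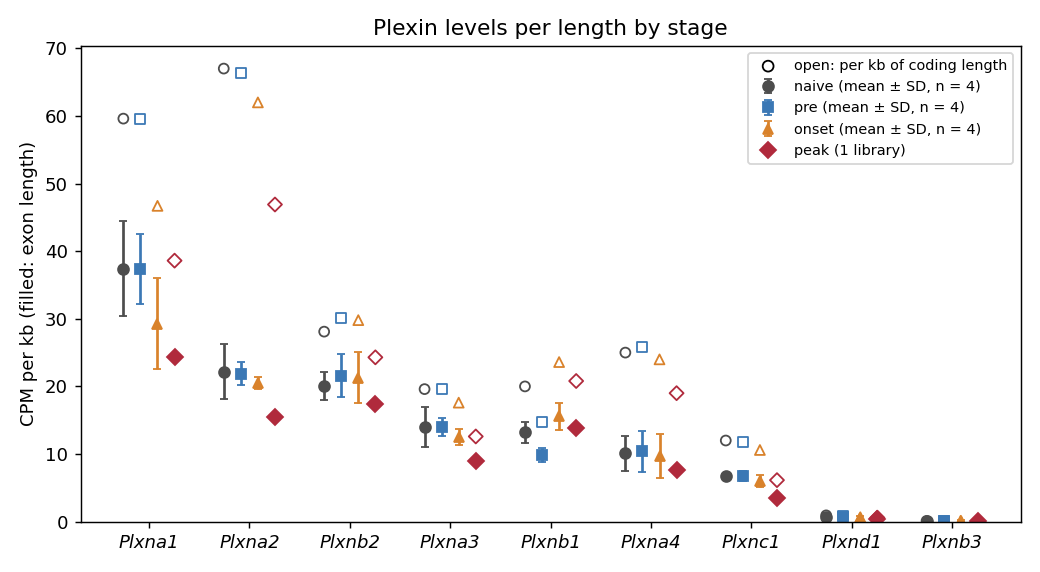
Level of each plexin in CPM per kilobase, by stage. Filled symbols are means per kilobase of exon with SD (n = 4, 1 library at peak) and open symbols means per kilobase of coding sequence. Naive means per kilobase of exon run from 37.4 for Plxna1 to 0.736 for Plxnd1 among the tested genes, and Plxna2 is first only per kilobase of coding sequence.

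As a family the plexins took a summed 1320 ± 163 CPM in naive libraries, 1290 ± 90.7 in pre and 1220 ± 98.9 at onset (SD, n = 4 each), with overlapping ranges of 1180 to 1510, 1190 to 1410 and 1110 to 1320. The peak library had 964 CPM, below all 12 others. This sum is carried by the A class. Plxna2 alone made up 27.0% to 31.4% of plexin counts and Plxna1 18.7% to 29.8%, whereas Plxnb1 ranged from 6.50% to 14.3%.

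**Figure D2:**
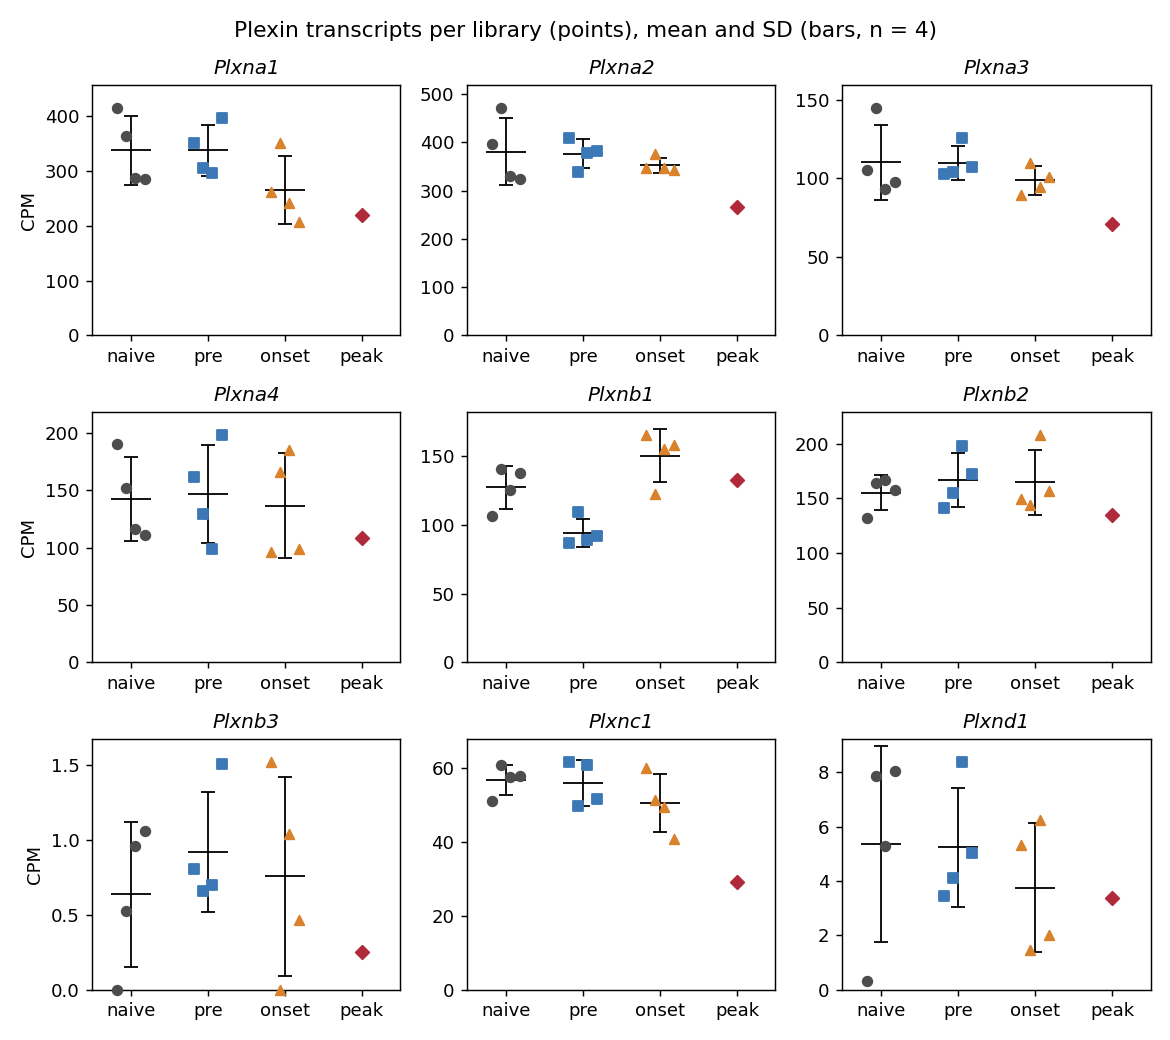
CPM of each plexin in every library (points, by stage), with the group mean and SD as a line and bar. Plxnb1 is lowest in pre and highest at onset, and Plxna2, Plxna3 and Plxnc1 have their lowest value in the peak library.

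Plxnb1 is the main receptor of Sema4d, a semaphorin made by lymphocytes and by neural cells, and activates RhoA through the exchange factors encoded by Arhgef11 and Arhgef12. It lies at chr9:109095389-109119917 on the plus strand (GRCm38, GENCODE M21). In naive libraries 1, 2, 4 and 5 it had 106, 140, 125 and 137 CPM, and in pre libraries 1 to 4 it had 86.9, 109, 88.7 and 91.4 CPM. Onset libraries 1 to 4 had 165, 122, 155 and 158 CPM, and the peak library 132. All pre libraries lay below all onset libraries, while naive libraries overlapped both, narrowly with pre (106 against 109). The group means were 127 ± 15.3 CPM in naive, 93.9 ± 9.94 in pre and 150 ± 19.0 at onset (SD, n = 4 each).

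The difference that led to the choice of this family, onset against pre, was 0.67 ± 0.12 (log2 fold change ± SE from edgeR) for Plxnb1. Of all 14893 genes, 1.98% likewise had every onset library above every pre library. The other 7 tested plexins had fitted values from -0.49 to -0.01 in the same contrast (47.2% of all genes were below 0), and in none of them were the groups apart. From these counts nothing is read, since the contrast led to the choice. Without the 4 rod-rich libraries Plxnb1 was at 0.64, and over all alternatives it ran from 0.64 to 0.76. Set against naive, the same libraries gave Plxnb1 -0.44 ± 0.12 in pre and 0.24 ± 0.12 at onset. These values use libraries of the contrast behind the choice, so they too are descriptions. Their signs are opposite, and the naive mean lay between the pre and onset means. At peak, which shares no library with that contrast, Plxnb1 differed from naive by 0.05 ± 0.18 (adjusted p = 0.944, edgeR quasi-likelihood test with Benjamini-Hochberg adjustment).

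Several cell type markers moved over the same stages as Plxnb1. From pre to onset, 11 of 13 tested ganglion cell markers had lower fitted values (median -1.27 log2), all 12 markers of Müller glia and astrocytes higher ones (median 0.82) and all 15 rod markers higher ones (median 0.91). Values were also higher for all 7 tested markers of endothelial cells and pericytes (median 0.57) and all 6 of T cells (median 2.18). The 8 T cell markers were low, with a summed 1.01 to 3.14 CPM in pre and 0.934 to 25.8 at onset. Over the 6 tested ones mean log2 CPM was 1.85 in onset 1 and -0.83, -0.02 and -0.87 in onset 2, 3 and 4. It was -0.88 to -0.46 in pre. Microglia markers divided evenly, 8 higher and 8 lower. Of all genes, 47.2% had a fitted value below 0 in this contrast. The part of these cell types in the Plxnb1 difference between pre and onset was not tested. Over 257 exon bases Plxnb1 overlaps the antisense gene model Gm7628, which had 0 to 12 counts per library. Without a stated strand setting, reads of the overlap cannot be told apart.

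**Figure D3:**
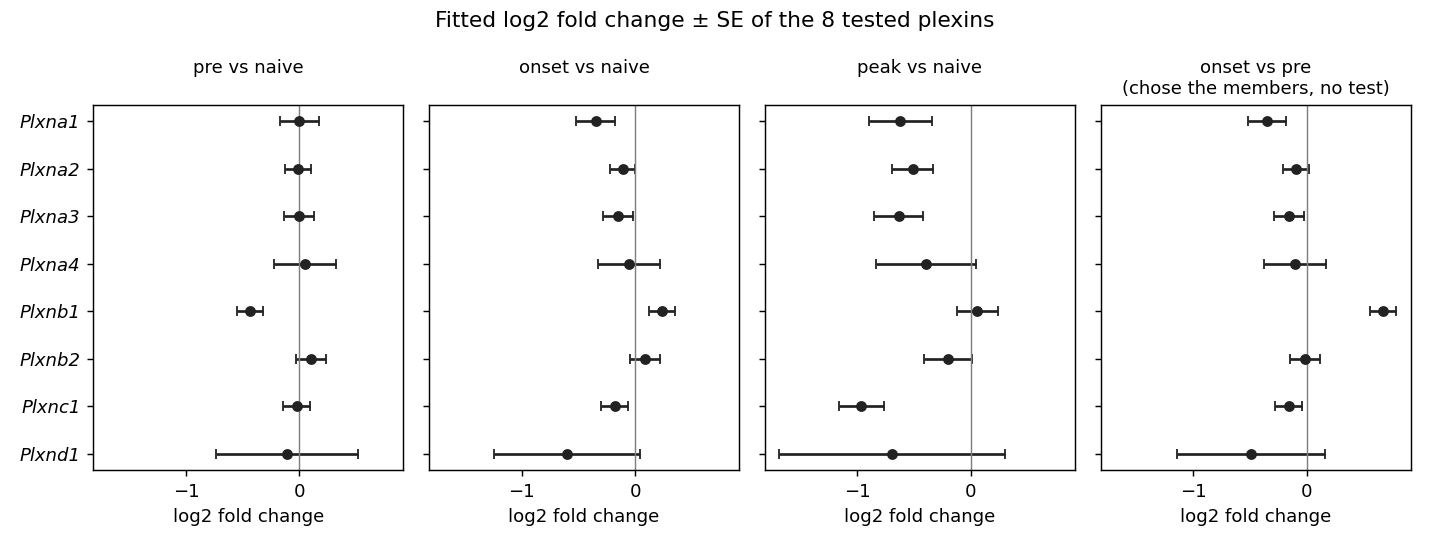
Log2 fold change of each tested plexin with its SE in the comparisons of pre, onset and peak with naive and of onset with pre. Plxnb1 lies at -0.44 in pre and 0.24 at onset against naive, and at peak 7 of the 8 genes lie below 0.

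Plxna1, the partner of neuropilin 1 in the response to Sema3a and a co-receptor with Trem2 and Tyrobp in myeloid cells, had 338 ± 63.6 CPM in naive, 338 ± 46.9 in pre and 265 ± 61.4 at onset (SD, n = 4 each). The onset libraries held 262, 352, 241 and 208 CPM, against 416, 364, 288 and 285 in naive libraries 1, 2, 4 and 5. Onset 2 lay within the naive range and the other onset libraries below it. The fitted difference at onset was -0.35 ± 0.17 (adjusted p = 0.813 in edgeR). At peak Plxna1 stood at 220 CPM, a difference of -0.62 ± 0.28 (adjusted p = 0.509 in edgeR). It lies at chr6:89316314-89362620, and 970 of its exon bases are shared with an antisense model, Gm26811.

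Plxna2 and Plxna4 are receptors of Sema6a, and in the mouse retina they guide amacrine and other neurites to their layers. Plxna2 (chr1:194618218-194816869) had 381 ± 69.6 CPM in naive, 377 ± 29.8 in pre and 353 ± 15.2 at onset, and 266 in the peak library. Its peak value lay below all 12 other libraries, the fitted difference from naive being -0.51 ± 0.18 (adjusted p = 0.355 in edgeR). Plxna4 (chr6:32144268-32588192) had 142 ± 36.8 CPM in naive, 146 ± 42.5 in pre and 136 ± 45.6 at onset. The 4 onset libraries held 96.3, 166, 185 and 98.8 CPM, so that onset 1 and 4 were alike and onset 2 and 3 lay well above them. Its peak value of 108 CPM was a little below the lowest naive value of 111. It shares 110 exon bases with the antisense gene Plxna4os3.

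Plxna3, which acts with neuropilin 2 in the response to Sema3f and with Plxna1 as a receptor of class 5 semaphorins in the mouse retina, lies on the X chromosome (chrX:74329066-74344689). It had 110 ± 23.6 CPM in naive, 110 ± 10.6 in pre and 98.7 ± 9.14 at onset, with overlapping ranges. The peak library had 70.7 CPM, below the lowest naive value of 93.1. The difference was -0.64 ± 0.21 (adjusted p = 0.320 in edgeR).

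Plxnb2, a receptor of class 4 semaphorins with roles in neural progenitors and in macrophages, showed no fitted difference from naive larger than its SE at any stage. It had 155 ± 15.9 CPM in naive libraries, 167 ± 24.5 in pre and 165 ± 29.2 at onset. The peak library had 135, and the fitted differences from naive were 0.10 ± 0.13, 0.09 ± 0.13 and -0.21 ± 0.21 (adjusted p = 0.905, 0.946 and 0.801 in edgeR). Its ranges in naive, pre and onset libraries overlapped. Plxnb3, a receptor of Sema5a known from oligodendrocytes, was near absent, with 0 to 7 counts per library and at most 1.52 CPM. Its counts summed to 13 over the naive libraries, 16 over pre, 11 over onset and 2 at peak, too few for a test. The oligodendrocyte regulators Olig2 and Sox10 were listed at 0 in all libraries of every group.

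Plxnc1, the receptor of the membrane-anchored Sema7a on neurons and leukocytes, had overlapping ranges from naive to onset and its lowest level in the peak library. It lies at chr10:94790866-94944835 on the minus strand and shares 115 exon bases with the gene model Gm48718. In naive libraries 1, 2, 4 and 5 it had 50.9, 60.6, 57.4 and 57.6 CPM, in pre libraries 1 to 4 it had 61.5, 49.5, 60.8 and 51.6, and at onset 59.9, 51.2, 49.3 and 40.8. The peak library had 29.0 CPM, below all 12 others. The fitted difference of peak from naive was -0.97 ± 0.20, with adjusted p = 0.0913 in edgeR, so it did not pass. DESeq2, limma-voom and a fit with the rod level as a covariate put it past the threshold, with adjusted p = 0.000685, 0.0438 and 0.0441. After removal of each library's trend over gene length the adjusted p was 0.344, with a difference of -0.85. At pre and onset the differences from naive were -0.02 ± 0.12 and -0.18 ± 0.12. Its ligand Sema7a had 70.2 ± 34 CPM in naive libraries and 66.8 at peak.

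Plxnd1, which binds Sema3e without a neuropilin and patterns blood vessels, was low at 5.38 ± 3.60 CPM in naive libraries, 5.24 ± 2.20 in pre and 3.76 ± 2.38 at onset, with 3.39 in the peak library. Naive 1 had a single count (0.314 CPM), below the floor of its library, and the other naive libraries 5.28 to 8.04 CPM. Its fitted differences, -0.11 ± 0.62, -0.60 ± 0.64 and -0.70 ± 0.995 at pre, onset and peak, were all within their error.

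Counted over the family, edgeR called 0 plexins past adjusted p of 0.05 in any comparison with naive. In pre against naive it called 0 of the 14893 genes (0%), with 832 genes (5.59%) at an unadjusted p under 0.05, while DESeq2 called 6 and limma-voom 0. In that comparison 6 plexins had a fitted value below 0, against 54.3% of all genes, with a median of -0.01 beside -0.02 over all genes. That count was unstable, falling to 1 without naive 2 (median 0.09) or without pre 2 (median 0.04), and the median was -0.19 without the 4 rod-rich libraries. At onset it again called 0 genes (0%), with 888 (5.96%) at an unadjusted p under 0.05, while DESeq2 called 16 and limma-voom 0. There 6 plexins had a fitted value below 0, against 52.7% of all genes, with a median of -0.13 beside -0.01. Without the 4 rod-rich libraries that median was -0.31, and without naive 2 it was -0.01 with 4 plexins below 0. Among the 25% of genes with the longest exon length, which include the tested plexins, 66.9% were below 0 at onset (median -0.06). With each library's trend over gene length removed, 5 plexins were below 0 at onset, with a median of -0.07. The part of gene length was not tested. The 3 comparisons share the naive libraries.

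In peak against naive, edgeR called 24 genes (0.161%), 23 of them (0.154%) lower and none a plexin, and 6.22% of genes were lower at an unadjusted p under 0.05. Among plexins 4 were, namely Plxna1, Plxna2, Plxna3 and Plxnc1, and 7 of 8 had a value below 0 against 53.5% of all genes. The median was -0.57, beside -0.03 over all genes, and 5 plexins lay below every naive library, against 22.6% of genes. The count of 24 genes was 293 with DESeq2 and 98 with limma-voom, and it was 0 when replicate numbers were blocked. All peak values rest on 1 library, assumed to vary like the others. Without the 4 rod-rich libraries the plexin median was -0.70.

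Long genes as a whole had lower fitted values at peak than the other genes. The tested plexins have 7.30 to 17.17 kilobases of exon, and the longest 25% of genes begin at 6.96 kilobases. Those 3478 genes had a median of -0.20 at peak, with 75.2% below 0 and 18.4% lower at an unadjusted p under 0.05, while the other genes had a median of 0.04. With each library's trend over length removed, the plexin median at peak was -0.32, with 7 of 8 genes below 0. Plxna2 then stood at -0.16, Plxna3 at -0.53 and Plxnc1 at -0.85. In the same comparison 12 of 13 tested ganglion cell markers had lower values (median -2.17), and all 16 microglia markers had higher values (median 1.47) and lay above every naive library, as did 21.8% of all genes. The parts of gene length and of cell content in the plexin values were not tested.

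The ligands and partners of plexins were read from lists. Neuropilin 1 had 20.6 ± 9.63 CPM in naive libraries, 24.9 ± 11.8 in pre, 18.7 ± 5.47 in onset and 20.7 in the peak library. In the same order neuropilin 2 had 84.4 ± 27.6, 74.8 ± 22, 87.2 ± 18.9 and 80.4. Neither co-receptor of the A class was therefore lower at peak beyond its naive spread, unlike the levels of Plxna1, Plxna2 and Plxna3, though the contrast between co-receptor and receptor was not tested. Of the 7 secreted class 3 semaphorins 5 were tested, and none passed at any stage. Sema3e, the ligand of Plxnd1, had 9.11 ± 5.74 CPM in naive and 0.879 at peak (-3.37 ± 1.55, adjusted p = 0.530 in edgeR), and Sema3f, the ligand read through neuropilin 2 and Plxna3, had 49.3 ± 35 and 27.6 (-0.86 ± 0.79).

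Of the 13 membrane-bound semaphorins, all tested, 11 had a higher fitted value in pre than in naive (45.7% of all genes did), 6 at onset (47.3%) and 4 at peak (46.5%), and none passed. Sema4d, the ligand of Plxnb1, had 67.9, 89.8, 82.3 and 71.7 CPM in naive libraries 1, 2, 4 and 5, and 82.7, 82.7, 118 and 105 in pre libraries 1 to 4. At onset it had 76.6, 75.2, 80.5 and 71.3 CPM and at peak 65.9. The mean of Sema4d was highest in pre, where that of Plxnb1 was lowest, but naive and onset means of Sema4d (77.9 ± 9.98 and 75.9 ± 3.83) differed by less than their spread. Every onset value of Sema4d lay below every pre value, as for 2.48% of all genes. For Sema4d, pre differed from naive by 0.31 ± 0.12 (adjusted p = 0.807 in edgeR). Sema6d, a ligand of Plxna1, had 8.27 ± 4.44 CPM in naive and 2.76 at peak (-1.59 ± 0.87).

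Among 12 receptors known to pair with plexins, 11 were tested and none passed. Cd72, a Sema4d receptor of B cells, had 2.12 ± 0.366 CPM in naive, 3.79 ± 2 at onset and 7.79 at peak (1.87 ± 0.50, adjusted p = 0.199 in edgeR), and the adhesion molecule Chl1 had 5.34 ± 2.98 in naive and 1 at peak (-2.39 ± 0.94, adjusted p = 0.419). The 31 intracellular signalling genes had a median of 0.06 in pre, -0.02 at onset and -0.02 at peak, with 25, 13 and 12 of them higher than naive. The smallest p among them was at peak, for Arhgap35, which encodes a GTPase-activating protein, with 241 ± 13.5 CPM in naive and 191 at peak (-0.33 ± 0.11, adjusted p = 0.297 in edgeR). Mical3, of the family of actin-oxidising enzymes that act under plexins, had 145 ± 18.6 and 101 CPM (-0.52 ± 0.22, adjusted p = 0.483). Arhgef11 and Arhgef12, through which Plxnb1 reaches RhoA, had 183 ± 14.2 and 523 ± 75.8 CPM in naive, 185 ± 9.99 and 536 ± 46.3 in pre, and 180 ± 12.6 and 505 ± 38.1 at onset, and so did not follow the Plxnb1 pattern over these stages. They and Sema7a are named for their link to a member and were chosen after their values were seen.

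Of 24 netrin, Slit and ephrin receptors 21 were tested, 16 had a fitted value below 0 at onset (median -0.25, 52.7% of all genes below 0) and 19 at peak (median -0.67, 53.5%). At peak 11 lay below every naive library, against 22.6% of all genes, and none passed. Members went both ways, and Epha2, named after its values were seen, was at 1.48 ± 0.34 (adjusted p = 0.131 in edgeR). Dcc, a netrin receptor, had 63.8 ± 10.8 CPM in naive, 41.2 ± 8.63 at onset and 29.5 at peak, differences of -0.63 ± 0.15 and -1.11 ± 0.26 (adjusted p = 0.654 and 0.126 in edgeR). Epha10, an ephrin receptor, had 72.8 ± 5.10, 53.9 ± 6.26 and 50.4 CPM (adjusted p = 0.616 and 0.263). At peak 75.2% of the longest 25% of genes were below 0, and the part of gene length in the values of this list was not tested. Whether plexins differ from these receptors was not tested.

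**Figure D4:**
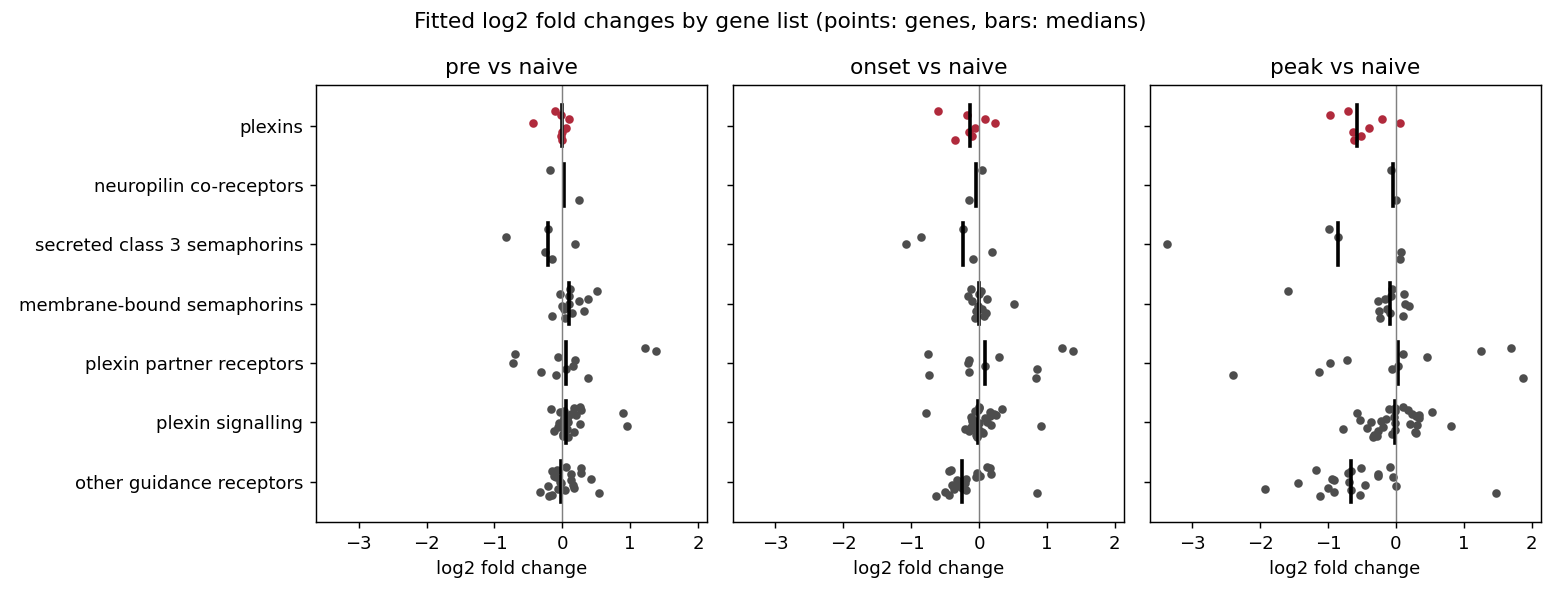
Log2 fold change of every tested gene (points) of the plexin, semaphorin, neuropilin, partner, signalling and other guidance receptor lists at each stage against naive, with the list median as a bar. At peak the medians of the plexins (-0.57) and of the other guidance receptors (-0.67) lie below that of the signalling genes (-0.02).

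Over the 13 libraries, 28 pairs of tested plexins were compared on log2 CPM, and 1 passed adjustment. Plxna2 and Plxna3 had r = 0.877 (permutation p = 0.00067, adjusted p = 0.0188) and rho = 0.731 (permutation p = 0.00652, adjusted p = 0.0517). Without the 2 libraries farthest from the median of Plxna2, r was 0.541, so the relation rests in part on those libraries. With stage means removed r was 0.765. Plxna1 had r = 0.724 with Plxna2 and 0.682 with Plxna4 (adjusted permutation p = 0.0594 and 0.0862), and Plxna3 had r = 0.278 with Plxna4 (adjusted permutation p = 0.573). Plxnb1 ran against Plxna1, at r = -0.64 over the libraries and -0.65 with stage means removed, given as a description. Plxnb2 and Plxnd1 had r = 0.66 (adjusted permutation p = 0.0862).

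**Figure D5:**
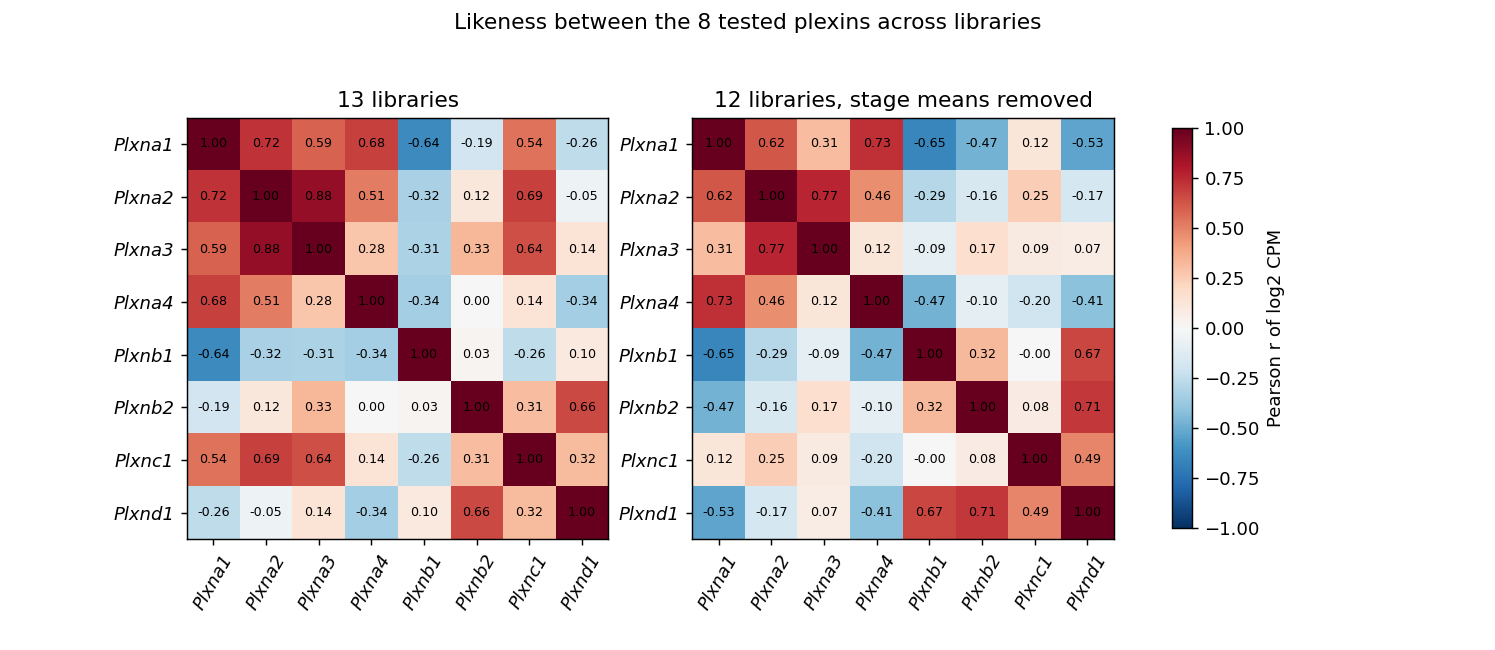
Pearson r of log2 CPM between the tested plexins (colour scale from -1 to 1), over the 13 libraries on the left and over 12 libraries with stage means removed on the right. The A-class genes form a block of positive values, with 0.877 and 0.765 between Plxna2 and Plxna3, and Plxnb1 has negative values with the A class in both panels.

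Against marker levels (mean log2 CPM of rod, amacrine, ganglion cell and microglia markers), 32 relations were computed and 0 passed adjustment, with 4 at an unadjusted permutation p under 0.05. The smallest p was that of Plxnc1 with ganglion cell markers, at r = 0.678 (permutation p = 0.0062, adjusted p = 0.198) and rho = 0.703 (permutation p = 0.00949, adjusted p = 0.297). It was 0.531 without the 2 farthest libraries, 0.494 with stage means removed and 0.363 with the median of the markers in place of their mean. Plxnb1 had r = 0.355 with rod, -0.162 with amacrine, -0.409 with ganglion cell and -0.079 with microglia markers. With stage means removed these were 0.353, -0.058, 0.493 and 0.166, given as a description.

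The genes whose log2 CPM followed a plexin most closely over the 13 libraries, among 13099 compared, are given as a description, since the libraries share depth and cell content. For Plxnb1 they were Dtwd1 (r = 0.889), the receptor phosphatase gene Ptprg (0.885), Aebp1 (0.874), Oxnad1 (0.866) and Cep152 (0.858). With stage means removed Oxnad1 had 0.846 and Ptprg 0.647. For Plxna1 the closest was Clasp1 (0.936), which encodes a microtubule-binding protein, followed by Caskin1 (0.916). Plxna4 was closest to the synaptic release gene Unc13b and to Adarb2 (0.934 each), and these had 0.952 and 0.934 with stage means removed. The closest gene was Dgkz for Plxna2 (0.887), Cbl for Plxna3 (0.921), Ss18 for Plxnb2 (0.876), Tnks for Plxnc1 (0.893) and Jam2, which encodes a junctional adhesion molecule, for Plxnd1 (0.926). With stage means removed and the peak library left out, these values were 0.902, 0.837, 0.875, 0.595 and 0.957 in the same order.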

How the data were processed

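Total RNA was extracted from mouse eyes with a miRNeasy kit, per the labels' protocols. The authors deposited 1 table of raw counts per gene symbol with 5 summary lines in HTSeq style, which were left out of totals and tests (reads in no feature were 24.4% to 29.7% of those in genes, in no feature or ambiguous). Tools named in the submitters' processing notes are HISAT2, cutadapt, DESeq2 and HTSeq. Genome build, annotation and strand setting are not given in the sources used here. Coordinates are therefore GENCODE M21's (GRCm38) and promoters RefSeq's.

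Counts of all 13 libraries were fitted at once in edgeR 4.0.16 (R 4.3.3): TMM factors, filterByExpr with a minimum count of 10, robust quasi-likelihood F test, two-sided, Benjamini-Hochberg over 14893 genes, threshold 0.05. Log2 CPM used a prior count of 2, and length trends a lowess span of 0.3. Correlations have two-sided permutation p-values (100000 resamples). DESeq2 1.42.0 and limma-voom 3.58.1 were among the alternatives. The pipeline was tested on simulated data.

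Within groups, libraries correlated at r = 0.935 to 0.984 over genes, which are not independent. Same-numbered naive and pre libraries deviated together (r = 0.271, 0.188 and 0.289), which passes a rule of r over 0.1 in every pair. No label says that numbers pair samples, and whether shared cell content gives these values was not tested. Onset with naive or with pre did not pass the rule. Over all 10 same-numbered pairs r ran from -0.393 to 0.289. The main fit did not use the numbers, and results with them as a block are given below. The members and lists were chosen with earlier results of these data known. Beside the plexins, named genes are both neuropilins, the 2 members of each list with the smallest p over the comparisons with naive, and the genes closest to a plexin. Arhgef11, Arhgef12, Sema7a and Epha2 fall outside this rule and were chosen after their values were seen.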

Additional observations from a re-analysis of the deposited data

Results flagged for a closer look

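Plxna2 in onset 2 stood apart from its group, at 375 CPM against 342 to 347 CPM in the other onset libraries. The gap to the nearest library was 0.849 of the whole range of the group. It was the 1 such value among 24 combinations of a tested plexin and a group of 4 libraries, and chance alone gives about 1 in 20 groups.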

How the results depend on the processing

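Depth limits Plxnb3 and Plxnd1, and 1 peak library limits every peak value. Over all alternatives Plxnb1 kept its direction against naive, in pre (-0.51 to -0.37) and at onset (0.16 to 0.32). Onset against pre (0.64 to 0.76) kept its direction too. That contrast led to the choice of the family, and those against naive share its libraries. The kept directions are therefore descriptions and no evidence of stability. The number of genes past the threshold changed with the setting. In pre against naive it was 0, but 6 with DESeq2, 100 with the rod index as a covariate and 92 with the length trend also removed, a pairing of settings chosen after seeing the data. In onset against naive it was 0, but 16 with DESeq2, 12 with the rod covariate, and 0 to 1 when single libraries were left out (1 without onset 2). In onset against pre it was 0, but 20 with DESeq2. In peak against naive it was 24, but 293 with DESeq2, 98 with limma-voom, 113 with the rod covariate, 1 with the length trend removed, 5 with both, 140 without the 4 rod-rich libraries and 6 to 25 without single libraries. With the replicate number as a block it was 0 at peak and 0 in pre against naive, and the block changed no plexin call. Plxnc1 at peak (adjusted p = 0.0913) had 0.000685 with DESeq2, 0.0438 with limma-voom and 0.0441 with the rod covariate, 0.344 with the length trend removed, 0.299 with the block, 0.0961 without the rod-rich libraries, and 0.0715 to 0.182 without single libraries. Signs turned only for values near 0 or with large errors, and the cause was not tested. In pre against naive, Plxna1 was 0.0114 with DESeq2, 0.1006 with limma-voom, 0.0117, 0.0133 and 0.0073 with RLE, upper quartile and no scaling factors, 0.0288 with no filter, 0.0203 with 2 groups only, 0.0256 and 0.0016 with the length trend removed without and with the rod covariate, 0.0092 without the peak library and -0.0883 to 0.1147 without single libraries. Plxna3 under those settings (other than length trend and rod covariate together) was 0.0122, 0.0946, 0.0125, 0.0106, 0.0039, 0.0264, 0.0195, 0.0204, 0.0087 and -0.0726 to 0.1581. Plxna2 was 0.0794 with limma-voom, 0.0133 with no filter, 0.0054 with 2 groups, 0.0270 with the length trend removed and -0.0807 to 0.1058 without single libraries. Plxna4 was -0.0447 with the block, -0.3905 without the rod-rich libraries and -0.1284 to 0.2193 without single libraries. Plxnc1 was 0.0046 with no filter, 0.0039 with length trend and rod covariate, 0.0333 without the rod-rich libraries and -0.0754 to 0.0403 without single libraries. Plxnd1 was 0.1983 with the rod covariate, 0.2228 with the length trend also removed, 0.2734 without the rod-rich libraries and -0.4712 to 0.1692 without single libraries. At onset, Plxna4 was 0.0223 with the length trend removed, 0.0350 with the rod covariate too and -0.2269 to 0.1152 without single libraries, and Plxnb2 was -0.0051 with limma-voom, -0.0166 with the block and -0.0373 to 0.1508 without single libraries. Plxna2 (-0.1733 to 0.0105) and Plxna3 (-0.2265 to 0.0044) at onset and Plxnb1 at peak (-0.0203 to 0.1038) also crossed 0 without single libraries. Lengths from RefSeq proteins were not run, and coding length from GENCODE, chosen after seeing the data, took their place. A fit of the 2 groups alone and one without the peak library were not run for peak, which has 1 library.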
